A study of Caenorhabditis elegans with 6 samples.

Results

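The genes described here encode the contractile units of the *Caenorhabditis elegans* body wall muscle and the structures that anchor them to the cell edge. They were chosen by name from a list and not by a rule on their measured values, though with earlier results of these data known. All 34 listed symbols were found among the 46778 genes of the deposited table. By role they comprised 9 thick filament genes, 14 thin filament genes and 11 attachment genes. Total RNA of worms was sequenced as 3 control libraries and 3 libraries treated with JM03, a derivative of crotamiton that the title of the series links to the channel protein OSM-9. For both groups the strain, genotype, sex, stage, dose, vehicle and exposure time were not stated. Nor was it stated whether replicates came from separate cultures, so the p-values describe the spread among these 6 libraries, which may be technical. Each value is in TPM, a share of a library's transcripts scaled by their length, so that levels of different genes can be set side by side within a library, while read depth is unknown.

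In the worm, body wall muscle is obliquely striated and runs in bands beneath the epidermis. Thick filaments of myosin and paramyosin are held at M-lines, and thin filaments of actin, tropomyosin and troponin are held at dense bodies. Both are fixed through integrin complexes to the basement membrane, so that force passes through the epidermis to the cuticle. Loss of several attachment genes stops embryos from elongating, while many filament genes are known from uncoordinated (Unc) mutants that move slowly or not at all.

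One library, control replicate 3, differed from the rest. It listed 16560 genes above 0, against 18049 to 18208 in the other 5, and ribosomal RNA took 4.37% of its TPM, against 0.338% to 0.639%. The median of all 12912 tested genes (those reaching 1 TPM in 3 or more libraries) was 0.75 below the gene's own median on the log2 scale in this library. The median log2 fold change of JM03 over control was 0.35 over all tested genes, and 0.046 without it. Fold changes of the muscle genes are therefore given with and without control replicate 3.

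None of the tested muscle genes passed the test between JM03 and control, although with the 6 libraries all 34 genes had higher mean levels in JM03. The JM03 libraries were spread as widely as the groups lay apart: JM03 replicate 3 was the highest library for 33 of the 34 genes, control replicate 3 the lowest for 31, and control replicate 1 lay close to JM03 replicates 1 and 2. Summed over the 34 genes, TPM was 1861, 1235 and 796 in control replicates 1, 2 and 3 and 1991, 1667 and 2732 in JM03 replicates 1, 2 and 3. These sums made up 0.0798% to 0.273% of a library. The groups thus overlapped, since control replicate 1 exceeded JM03 replicate 2. In whole animals, the number of muscle cells, the RNA per muscle cell and the share of RNA from other tissues cannot be told apart.

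Of the 34 genes, 33 could be tested, and the remaining one, the giant *ttn-1*, lay below the filter. With limma on log2(TPM + 1), 0 of the 33 passed a Benjamini-Hochberg adjusted p of 0.05, where 0.132% of all tested genes did (17 of 12912). An unadjusted p below 0.05 was reached by 1 of the 33, against 11.7% of all tested genes, and the adjusted p ran from 0.373 to 0.778. The log2 fold change was positive for all 33, where it was positive for 72.7% of all tested genes, and its median was 0.78 against 0.35. Without control replicate 3 again 0 passed, where 0.132% of all tested genes did, with 2 unadjusted p below 0.05, against 19.5%. Then 32 were positive, against 56.5%, with a median of 0.42 against 0.046. Over all tested genes, the highest library was JM03 replicate 3 for 24%, and the lowest was control replicate 3 for 65%. Control replicate 2 was lowest for *tni-3*, *unc-27* and *cpn-3* (9.43% of all tested genes), and control replicate 1 was highest for *tnt-4* (5.55%).

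**Figure D1:**
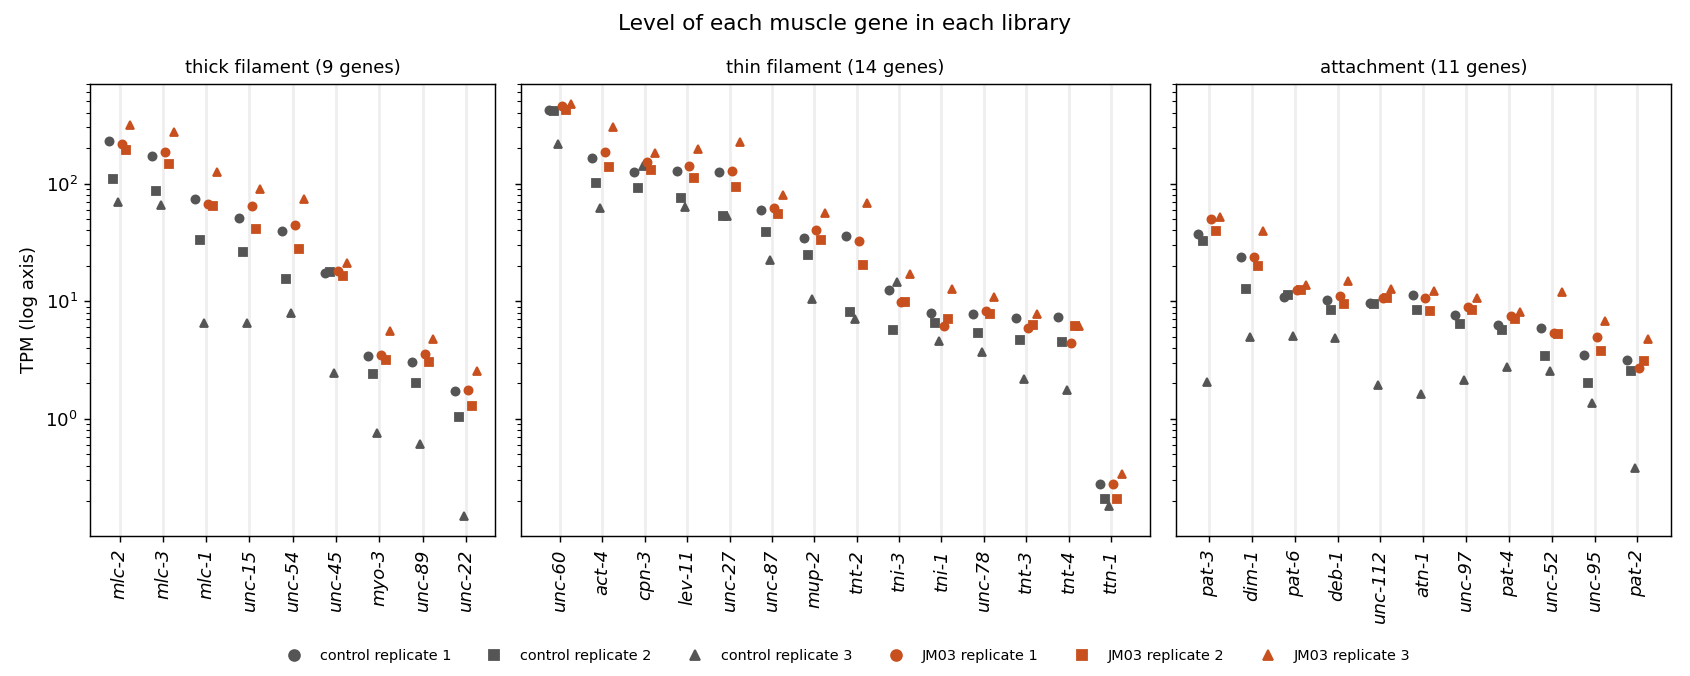
TPM (log axis) of each of the 34 muscle genes in each of the 6 libraries, grouped by role and ordered by mean level. Grey points are control and orange points JM03 libraries, with 1 marker shape per replicate number. JM03 replicate 3 (orange triangles) is the top point for 33 genes, and control replicate 3 (grey triangles) the bottom point for 31.

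Among the thick filament genes, all 9 had higher mean levels in JM03 and none passed the test (limma adjusted p from 0.436 to 0.494). The main body wall myosin heavy chain, MHC B, is encoded by *unc-54* (I:14855901 to 14863482 in WBcel235, minus strand). *unc-54* had 39.5, 15.4 and 7.99 TPM in control replicates 1, 2 and 3 and 44.8, 27.8 and 73.7 TPM in JM03 replicates 1, 2 and 3. Its JM03 range began below control replicate 1, and the log2 fold change was 1.35 ± 0.63 (SE, limma adjusted p = 0.463), or 0.84 ± 0.54 without control replicate 3. The second heavy chain, MHC A of the filament centre, is encoded by *myo-3* (V:12226817 to 12234343, minus strand) and was about an order of magnitude lower than *unc-54*. *myo-3* had 3.43, 2.41 and 0.76 TPM in the controls and 3.5, 3.15 and 5.58 TPM in JM03. One JM03 library lay below control replicate 1 and another just above it, with a log2 fold change of 0.74 ± 0.41 (limma adjusted p = 0.483), or 0.36 ± 0.27 without control replicate 3.

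Paramyosin, the rod protein of the filament core, is encoded by *unc-15* (I:7376604 to 7383197, minus strand). It had 50.7, 26 and 6.56 TPM in the controls and 64, 41 and 89.9 TPM in JM03. Control replicate 1 lay within the JM03 range, and the log2 fold change of 1.52 ± 0.72 (limma adjusted p = 0.464) was 0.75 ± 0.41 without control replicate 3.

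The light chains were the most abundant thick filament transcripts. The regulatory light chains *mlc-1* and *mlc-2* lie on opposite strands of chromosome X (17459210 to 17460778 and 17455792 to 17456586), 2623 bases apart. They encode near-identical proteins, so the split of reads between them is uncertain. *mlc-2* had 228, 109.8 and 70.4 TPM in the controls and 218, 194 and 315 TPM in JM03 (log2 fold change 0.96 ± 0.45, limma adjusted p = 0.463, or 0.58 ± 0.36 without control replicate 3). *mlc-1* had 73.6, 33.5 and 6.54 TPM in the controls and 67.6, 64.6 and 125 TPM in JM03. For each gene of this pair, control replicate 1 lay above JM03 replicates 1 and 2. *mlc-1* had the highest log2 fold change of the 33 genes, 1.63 ± 0.82 (limma adjusted p = 0.473), and 0.71 ± 0.44 without control replicate 3. The essential light chain *mlc-3* had 171, 87 and 65.9 TPM in the controls and 187, 148 and 272 TPM in JM03. JM03 replicate 2 lay below control replicate 1, and *mlc-3* had the smallest unadjusted p of the thick filament genes (log2 fold change 0.97 ± 0.42, limma adjusted p = 0.436, or 0.68 ± 0.37 without control replicate 3).

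The giant proteins that organise the A-band had low levels per unit length. Twitchin, a kinase of the thick filament, is encoded by *unc-22*, which had 1.73, 1.03 and 0.15 TPM in the controls and 1.75, 1.28 and 2.54 TPM in JM03. The obscurin-like M-line protein is encoded by *unc-89*, which had 3.06, 2.02 and 0.61 TPM in the controls and 3.53, 3.06 and 4.8 TPM in JM03. For both genes control replicate 1 was level with or within the JM03 range, and the log2 fold changes were 0.60 ± 0.36 and 0.81 ± 0.39 (limma adjusted p = 0.49 and 0.464). Without control replicate 3 they were 0.26 ± 0.26 for *unc-22* and 0.44 ± 0.25 for *unc-89*. The myosin chaperone *unc-45* had another order of libraries, with control replicate 2 at the level of control replicate 1. It had 17.4, 17.7 and 2.46 TPM in the controls and 18.2, 16.5 and 21.3 TPM in JM03. Its log2 fold change was 0.88 ± 0.68 over the 6 libraries and 0.075 ± 0.14 without control replicate 3 (limma adjusted p = 0.494 and 0.764).

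The thin filament genes gave no call either (limma adjusted p from 0.459 to 0.778), and their log2 fold changes ran from 0.19 to 1.40. The highest level of all 34 genes was that of *unc-60* (V:1475086 to 1479576, plus strand), which encodes cofilins that sever actin filaments, of which 1 form is known from muscle and the other from other tissues. *unc-60* had 426, 417 and 218 TPM in the controls and 459, 419 and 473 TPM in JM03. Apart from control replicate 3 these values lay close together, with a log2 fold change of 0.41 ± 0.30 (limma adjusted p = 0.492), or 0.093 ± 0.087 without that library. The annotation used here carries a second protein-coding gene on the same strand across 1699 bases of *unc-60* that the table has no row for, so which of the forms the value counts is not known.

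Muscle actin was followed through *act-4* (X:4960621 to 4964413), 1 of several near-identical actin genes between which reads may be split. *act-4* had 165, 102 and 62.5 TPM in the controls and 184, 137 and 300.1 TPM in JM03 (log2 fold change 0.95 ± 0.44, limma adjusted p = 0.463, or 0.60 ± 0.38 without control replicate 3). Tropomyosin, which lies along the actin filament, is encoded by *lev-11* and had 127, 75.7 and 63.6 TPM in the controls and 142, 111.9 and 196 TPM in JM03 (0.78 ± 0.36, limma adjusted p = 0.459, or 0.57 ± 0.31 without control replicate 3). For both genes JM03 replicate 2 lay below control replicate 1. The calponin family gene *cpn-3* had another order. It had 126, 91.9 and 141 TPM in the controls and 153, 131 and 182 TPM in JM03, so that control replicate 2, not 3, was its lowest library. Its log2 fold change was 0.38 ± 0.27 over the 6 libraries and 0.51 ± 0.19 without control replicate 3 (limma adjusted p = 0.49 and 0.246).

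The troponin complex sets the calcium response of the thin filament through its subunits T, which binds tropomyosin, I, which inhibits, and C, which binds calcium. The main troponin I, *unc-27* (X:8789456 to 8790621), had 125, 52.5 and 52.6 TPM in the controls and 128, 94 and 224 TPM in JM03 (log2 fold change 0.97 ± 0.47, limma adjusted p = 0.469, or 0.77 ± 0.50 without control replicate 3). *tni-1* had 7.98, 6.47 and 4.58 TPM in the controls and 6.21, 7.03 and 12.6 TPM in JM03 (0.36 ± 0.36, limma adjusted p = 0.547, or 0.17 ± 0.32 without control replicate 3). *tni-3* had 12.5, 5.71 and 14.6 TPM in the controls and 9.78, 9.75 and 17 TPM in JM03. Control replicate 3 was its highest control, and it had the lowest log2 fold change of the 33 genes, 0.19 ± 0.43 (limma adjusted p = 0.778), or 0.43 ± 0.39 without control replicate 3. The span of *tni-3* overlaps that of the opposite-strand gene *phy-3* over 1491 bases. Overlap of their exons was not checked, so whether their reads could be confused is not known.

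Among the troponin T genes, *tnt-2* was the most variable of the 34 genes within the JM03 group. It had 35.9, 8.02 and 7.09 TPM in the controls and 32.5, 20.1 and 68.7 TPM in JM03 (log2 fold change 1.40 ± 0.72, limma adjusted p = 0.474, or 1.01 ± 0.76 without control replicate 3), a 3.41-fold range among JM03 libraries. *mup-2*, whose mutants detach their muscle, had 34.6, 24.5 and 10.4 TPM in the controls and 40.4, 33.4 and 55.9 TPM in JM03 (0.99 ± 0.49, limma adjusted p = 0.469, or 0.52 ± 0.26 without control replicate 3). *tnt-4*, a troponin T known from the pharynx, had 7.27, 4.48 and 1.76 TPM in the controls and 4.43, 6.15 and 6.20 TPM in JM03. It was the only one of the 34 genes whose highest library was a control, and its log2 fold change went from 0.39 ± 0.44 to -0.042 ± 0.26 without control replicate 3 (limma adjusted p = 0.58 and 0.932).

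The remaining thin filament genes were a further troponin T gene, *tnt-3*, the actin-bundling gene *unc-87*, the cofilin partner *unc-78* and the titin-like gene *ttn-1*. For the first 3 the log2 fold change was 0.53, 0.78 and 0.62 in that order (adjusted p in limma 0.494, 0.478 and 0.478), and 0.16, 0.42 and 0.40 without control replicate 3. Over the 6 libraries *tnt-3* ran from 2.19 to 7.86 TPM, *unc-87* from 22.4 to 80.0 TPM and *unc-78* from 3.68 to 10.8 TPM, each lowest in control replicate 3 and highest in JM03 replicate 3. *ttn-1*, whose longest annotated transcript of 45903 nt was the longest of the 34, had 0.28, 0.21 and 0.18 TPM in the controls and 0.28, 0.21 and 0.34 TPM in JM03. At values of this size a deposited step of 0.01 TPM is a large share of the level, and *ttn-1* was not tested.

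The 11 attachment genes also had positive log2 fold changes and gave no call (limma adjusted p from 0.373 to 0.5). The JM03 libraries all lay above all controls for 7 of the 33 tested muscle genes, a share close to the 21.9% of all tested genes so arranged. Of these 7, 6 were attachment genes. These 6 were *pat-3*, *pat-4*, *pat-6*, *unc-97*, *unc-112* and *unc-95*, and the other was the thin filament gene *unc-78*, where the gap was 7.74 against 7.73 TPM. No thick filament gene was so arranged. No test was made of that count, and the gaps to the highest control were small.

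Beta integrin, encoded by *pat-3* (III:3908931 to 3914149, minus strand), is the only beta subunit of the worm and serves many tissues. It had 37.2, 32.3 and 2.05 TPM in the controls and 49.6, 39.6 and 52.2 TPM in JM03. The JM03 libraries lay above the controls, and control replicate 3 lay 18.1-fold below control replicate 1, the widest such gap of the 34 genes. The log2 fold change was 1.61 ± 0.95 over the 6 libraries (limma adjusted p = 0.49) and 0.42 ± 0.14 without control replicate 3, where *pat-3* had the smallest p of the 33 genes (limma adjusted p = 0.233). The muscle alpha integrin *pat-2* was lower per unit length and had 3.16, 2.53 and 0.38 TPM in the controls and 2.68, 3.11 and 4.77 TPM in JM03. Unlike *pat-3* it overlapped between groups, with a log2 fold change of 0.70 ± 0.46 (limma adjusted p = 0.49), or 0.21 ± 0.25 without control replicate 3.

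Inside the cell, integrin binds kindlin (*unc-112*), the pseudokinase ILK (*pat-4*), parvin (*pat-6*) and the LIM protein PINCH (*unc-97*). *unc-112* had 9.72, 9.54 and 1.94 TPM in the controls and 10.6, 10.6 and 12.8 TPM in JM03. *pat-4* had 6.31, 5.71 and 2.76 TPM in the controls and 7.47, 7.04 and 8.14 TPM in JM03. All 4 genes had the controls below JM03, by a narrow margin in control replicates 1 and 2. *pat-6* had 10.9, 11.3 and 5.08 TPM in the controls and 12.5, 12.5 and 13.7 TPM in JM03. *unc-97* had 7.59, 6.46 and 2.14 TPM in the controls and 8.94, 8.49 and 10.7 TPM in JM03. The log2 fold changes of *unc-112*, *pat-4*, *pat-6* and *unc-97* were 0.83, 0.58, 0.53 and 0.82 (limma adjusted p = 0.49, 0.49, 0.49 and 0.478). Without control replicate 3 they were 0.21, 0.29, 0.20 and 0.37 (limma adjusted p = 0.442, 0.35, 0.408 and 0.303).

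*unc-95*, which encodes a LIM domain protein of the attachment sites, had the smallest p of the 33 genes with the 6 libraries. It had 3.47, 2 and 1.35 TPM in the controls and 4.99, 3.74 and 6.82 TPM in JM03. All 3 JM03 values lay above the controls, with a log2 fold change of 0.94 ± 0.35 (limma adjusted p = 0.373) and 0.73 ± 0.30 without control replicate 3 (limma adjusted p = 0.266). With array quality weights, under which 17.1% of all tested genes were called, *unc-95* and *cpn-3* were called (limma adjusted p = 0.0476 and 0.0379), and no other of the 33 genes was.

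The extracellular and dense body proteins made up the rest of the attachment genes. Perlecan, the basement membrane proteoglycan under the muscle, is encoded by *unc-52* and had 5.93, 3.44 and 2.54 TPM in the controls and 5.36, 5.22 and 12 TPM in JM03 (log2 fold change 0.74 ± 0.42, limma adjusted p = 0.487, or 0.53 ± 0.41 without control replicate 3). JM03 replicate 3 was the only JM03 library above control replicate 1, and was 2.29-fold above the lowest JM03 library. *dim-1*, an immunoglobulin-domain protein near the dense bodies, had 23.9, 12.8 and 4.95 TPM in the controls and 23.6, 20.1 and 39.8 TPM in JM03 (1.12 ± 0.58, limma adjusted p = 0.474, or 0.58 ± 0.38 without control replicate 3). Vinculin (*deb-1*) had 10.3, 8.36 and 4.91 TPM in the controls and 11, 9.51 and 14.7 TPM in JM03 (0.56 ± 0.36, limma adjusted p = 0.49, or 0.29 ± 0.23 without control replicate 3). Alpha-actinin (*atn-1*) had 11.3, 8.5 and 1.64 TPM in the controls and 10.6, 8.27 and 12.3 TPM in JM03, with a log2 fold change of 0.74 ± 0.59 (limma adjusted p = 0.5), or 0.058 ± 0.23 without control replicate 3 (limma adjusted p = 0.886). For these 4 genes control replicate 1 lay within the JM03 range.

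**Figure D2:**
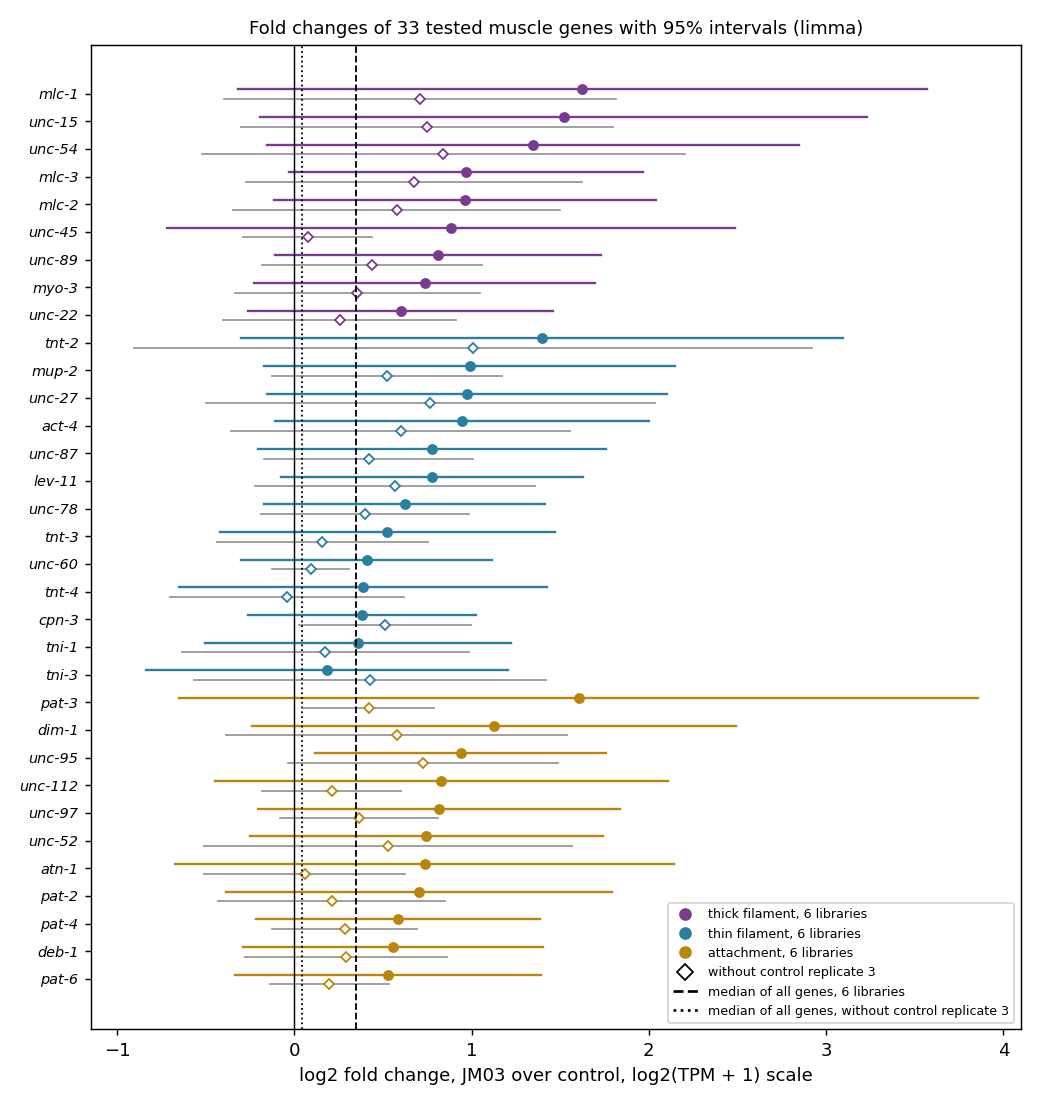
Log2 fold change of JM03 over control on the log2(TPM + 1) scale for the 33 tested genes, from limma, with 95% confidence intervals. Filled circles use the 6 libraries and open diamonds leave out control replicate 3. The dashed and dotted lines are the medians of all tested genes, 0.35 and 0.046. Without control replicate 3 most points move towards 0, and *tnt-4* falls just below it.

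The spread between libraries of the same group was described for each role without a test, and the ranges of single genes overlapped widely among the roles. Among the JM03 libraries the highest value was a median of 1.85-fold above the lowest for the thick filament genes, 1.65-fold for the thin filament genes and 1.48-fold for the attachment genes. Between control replicates 1 and 2, the better-matched controls, the medians were 1.95-fold, 1.53-fold and 1.23-fold in the same order, and between control replicates 1 and 3 they were 5.02-fold, 2.24-fold and 3.55-fold. Within roles, the narrowest ranges among JM03 libraries belonged to *unc-45*, *unc-60* and *pat-6* (1.29-fold, 1.13-fold and 1.10-fold), and the widest to *unc-54*, *tnt-2* and *unc-52* (2.65-fold, 3.41-fold and 2.29-fold). Relative to control replicate 1, the median thick filament gene was at 0.512 in control replicate 2, 0.199 in control replicate 3 and 1.04, 0.861 and 1.59 in JM03 replicates 1, 2 and 3. For the thin filament genes the same ratios were 0.655, 0.448, 1.03, 0.877 and 1.42. The attachment genes had 0.812, 0.282, 1.09, 1.06 and 1.40. In JM03 replicate 2 none of the 9 thick filament genes lay above control replicate 1, with *unc-89* level at 3.06 TPM. Of the thin filament genes 2 of 14 lay above it, and of the attachment genes 6 of 11 (54.5%). The attachment share was close to the 55.7% of all tested genes that lay above it.

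Relative to the median of all tested genes, the median log2 fold change was 0.61 for the thick filament genes, 0.27 for the thin filament genes and 0.39 for the attachment genes. Without control replicate 3 these were 0.53, 0.38 and 0.24. The thick filament genes had the highest median both times and the order of the other two turned round. Without control replicate 2 the attachment median, at 0.46, lay just above that of the thick filament, at 0.45. The standard deviation between replicates of a group was 0.45 for the thick filament, 0.33 for the thin filament and 0.30 for the attachment median. The roles were measured in the same libraries, so this is not the spread of a difference between roles. The same deviations are used for every setting below, as a rough scale that gives no verdict. The difference between any 2 roles was below the larger of their deviations with the 6 libraries and without control replicate 3. It exceeded it between thick filament and attachment genes with the length trend removed (0.66 against 0.19), and between thick and thin filament genes with a filter at 5 TPM (0.75 against 0.21), with a pseudocount of 0.1 (0.76 against 0.28) and without control replicate 1 (0.85 against 0.34).

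**Figure D3:**
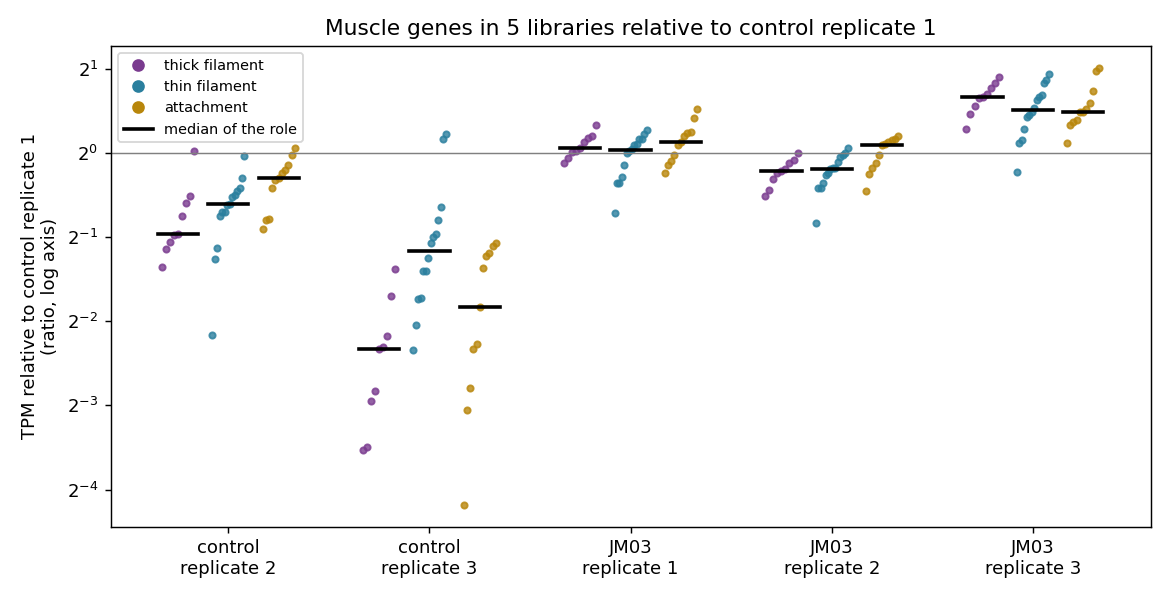
TPM of each muscle gene in 5 libraries divided by its TPM in control replicate 1 (log axis), coloured by role, with black bars at the median of each role. The thick filament medians run from 0.199 in control replicate 3 to 1.59 in JM03 replicate 3. The attachment genes lie closest to 1 in control replicate 2 and JM03 replicate 2.

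The make-up of each protein family was followed as shares within a library, which a shift common to all its genes does not alter. A shift linked to transcript length, as described below for control replicate 3, can alter shares and ratios between genes of unlike length. *unc-54* gave 92.0%, 86.5% and 91.3% of the myosin heavy chain TPM in the control libraries and 92.8%, 89.8% and 93.0% in JM03. Accordingly the ratio of *myo-3* to *unc-54* was 0.113 ± 0.038 in control and 0.0891 ± 0.0212 in JM03 (mean ± SD, n = 3 each), a difference smaller than the SD of the controls. *mlc-2* gave 75.6%, 76.6% and 91.5% of the regulatory light chain TPM in the control libraries and 76.3%, 75.0% and 71.5% in JM03. Control replicate 3 was thus the one library in which the balance of this pair was displaced. *unc-27* gave 86.0%, 81.2% and 73.3% of troponin I in the controls and 88.9%, 84.8% and 88.3% in JM03. *tni-3* gave 20.4% of it in control replicate 3, against 6.71% to 8.82% in the other 5 libraries. Troponin T was shared more evenly, with *mup-2* at 40.3% to 58.7% and *tnt-2* at 19.2% to 49.5% over the 6 libraries, in overlapping ranges between groups.

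Partner transcripts were compared as 7 log2 ratios with a two-sided exact permutation test over the libraries, which with 3 against 3 cannot give a p below 0.1. No ratio passed the test between the groups (exact p from 0.2 to 0.9, Benjamini-Hochberg adjusted over the 7 ratios 0.7 to 0.9). Paramyosin stood at 1.13 ± 0.357 per heavy chain (*unc-15* over *myo-3* plus *unc-54*) in control and 1.26 ± 0.111 in JM03. The regulatory light chains stood at 7.95 ± 0.885 and 6.61 ± 1.53 per heavy chain. The essential light chain stood at 0.677 ± 0.157 and 0.615 ± 0.0424 per regulatory light chain. *unc-27* over *tni-1* had the largest difference, at 11.8 ± 3.81 in control and 17.2 ± 3.63 in JM03, or 0.58 on the log2 scale (exact permutation p = 0.2, adjusted p = 0.7) and 0.58 without control replicate 3, with control replicate 1 at 15.7 above JM03 replicate 2 at 13.4. Alpha over beta integrin (*pat-2* over *pat-3*) was 0.085, 0.0784 and 0.185 in the control libraries and 0.0541, 0.0786 and 0.0914 in those of JM03. PINCH over ILK (*unc-97* over *pat-4*) was 1.20, 1.13 and 0.775 in the control libraries and 1.20, 1.21 and 1.31 in those of JM03. Control replicate 3 had the highest alpha to beta integrin ratio and the lowest PINCH to ILK ratio of the 6 libraries. Without it these log2 differences went from -0.56 to -0.16 and from 0.28 to 0.083, those of *unc-15* and *mlc-3* from 0.21 to -0.059 and from -0.12 to 0.064, and those of *myo-3* and the regulatory light chains from -0.31 to -0.41 and from -0.29 to -0.21.

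**Figure D4:**
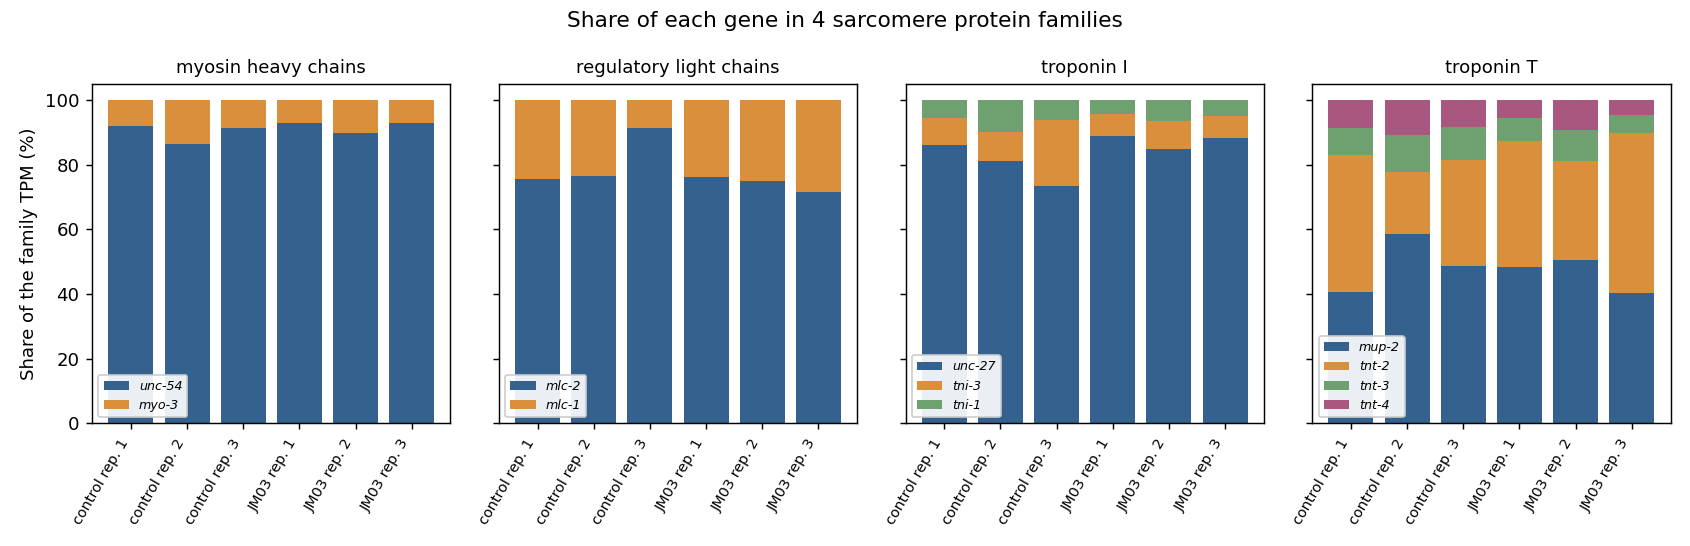
Share of each gene, in percent of the summed TPM of its family, in each of the 6 libraries. The families are the myosin heavy chains, the regulatory light chains, troponin I and troponin T. The heavy chain shares vary little, *mlc-2* reaches 91.5% in control replicate 3, and the split between *mup-2* and *tnt-2* varies most.

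The 34 genes span longest annotated transcripts from 612 nt (*cpn-3*) to 45903 nt (*ttn-1*), and control replicate 3 was low in long transcripts. Over 12895 tested genes with a length, its deviation from the gene median had a Spearman correlation of -0.547 with length, against -0.00807 to 0.154 in the other libraries, where genes are not independent. Over the 33 muscle genes the same correlation was -0.299 in control replicate 3. The median ratio of control replicate 1 to control replicate 3 was 2.48 for the 18 tested muscle genes under 2000 nt, 5.96 for the 10 between 2000 and 5000 nt and 4.95 for the 5 longer ones. The short *mlc-1*, at 1155 nt, was nevertheless 11.3-fold lower in control replicate 3 than in control replicate 1, close to the 11.5-fold of *unc-22* at 21601 nt. The long *unc-52* and *ttn-1* had ratios of 2.33 and 1.56. With the length trend of each library removed, 30 of the 33 genes had a positive log2 fold change, against 53.6% of all tested genes, and the medians relative to all tested genes were 0.66, 0.27 and 0.19 for thick filament, thin filament and attachment genes. *tnt-3*, *unc-22* and *deb-1* then had values of -0.084, -0.098 and -0.039, and none of the 33 genes passed the test, where 0.0931% of all tested genes did. Over the 33 genes, the Spearman correlation of log2 fold change with length was 0.0889 before this removal and -0.414 after it. The removal thus lowered longer muscle genes more than shorter ones. In JM03 replicate 3 the deviation of the muscle genes showed no relation to length, with a Spearman correlation of 0.0227.

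**Figure D5:**
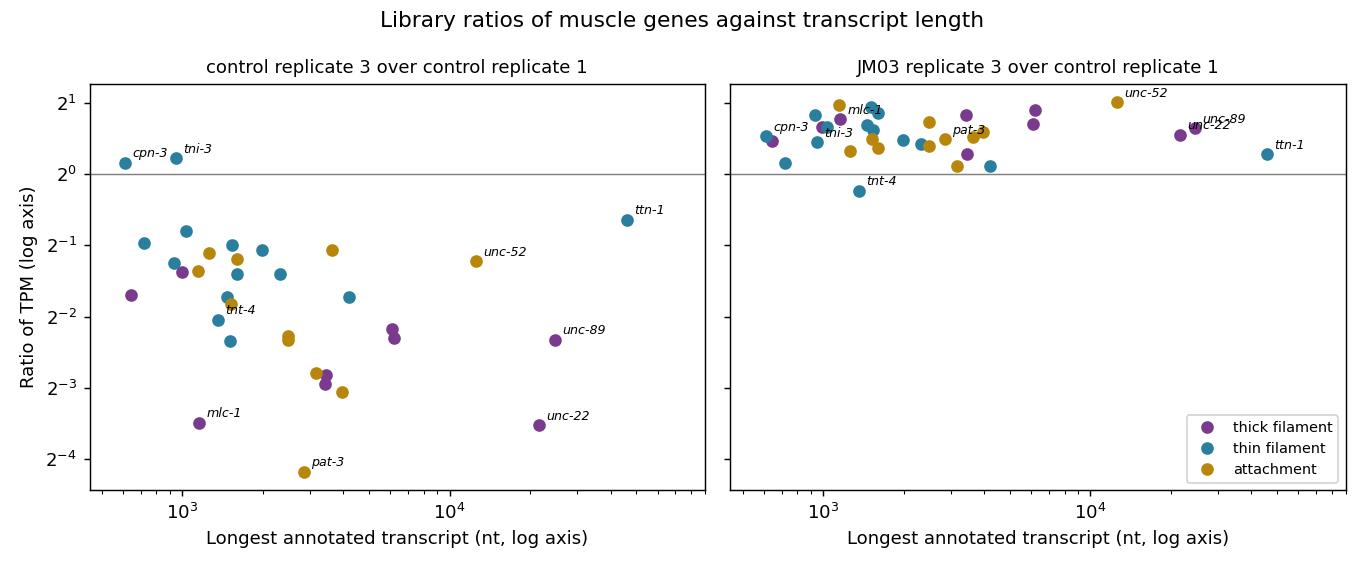
Ratio of TPM in control replicate 3 (left) and in JM03 replicate 3 (right) to control replicate 1, on a log axis, against the longest annotated transcript of each of the 34 muscle genes. In control replicate 3, *cpn-3* and *tni-3* lie above 1 and *pat-3* lowest. In JM03 replicate 3 every gene but *tnt-4* lies above 1, at all lengths.

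Apart from control replicate 3, 22 of the 33, against 9.35% of all tested genes, had a Pearson correlation above 0.9 between their log2(TPM + 1) and the mean of the other muscle genes over the 5 libraries, which all genes share. This held for 8 of 9 thick filament, 9 of 13 thin filament and 5 of 11 attachment genes. The highest value was that of *dim-1* (0.999), followed by *unc-27* (0.995) and *unc-87* (0.994). The lowest were *tnt-4* (0.442), *pat-6* (0.689), *unc-45* (0.731) and *tni-1* (0.791). Control replicate 2 lay below control replicate 1 for 32 of the 34 genes, where 48.9% of all tested genes did, and JM03 replicate 1 below JM03 replicate 3 for all 34, where 46.4% did. By chromosome, 11 of the genes lie on X, 7 each on I and V, 5 on III, 3 on IV and 1 on II.

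Other genes of the muscle and its surroundings were read from lists of known markers, none of whose genes passed the test in the 6 libraries. Among 24 further body wall muscle genes, 23 were tested and each was positive, with a median log2 fold change of 0.33 above that of all tested genes, or 0.085 without control replicate 3, where 19 were positive. Troponin C of the body wall (*pat-10*) had 339.6, 172 and 346 TPM in the controls and 349, 303 and 523 TPM in JM03, while the LIM protein gene *mlp-1* had the smallest p of this list (25.5, 23.8 and 4.73 against 38.3, 38.8 and 52.1 TPM, log2 fold change 1.49 ± 0.63, limma adjusted p = 0.425, or 0.77 without control replicate 3). *hlh-1*, which encodes the muscle regulator related to MyoD, stayed at 0.54 to 2.18 TPM and was not tested. Pharyngeal muscle genes were mixed. The myosin gene *myo-1* had 3.06, 1.64 and 0.28 TPM in the controls and 2.72, 2.99 and 3.38 TPM in JM03, lowest in control replicate 3 and highest in JM03 replicate 3, as most body wall genes were. The summed level over 5 genes was 57.7, 48.6 and 47.4 TPM in the controls and 60.1, 65.7 and 57.1 TPM in JM03, with JM03 replicate 3 lowest in its group, and *tni-4* gave most of it. The 4 of them tested were positive with a median of 0.037 above all tested genes, or 0.15 without control replicate 3, and *myo-1* had the smallest p (limma adjusted p = 0.49). Of 6 dystrophin complex genes 4 were positive and 2 negative, with a median of -0.27 relative to all tested genes, or -0.014 without control replicate 3 (smallest p for *dyb-1*, log2 fold change -0.55, limma adjusted p = 0.492).

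Basement membrane and epidermal attachment genes, which lie outside the muscle cell on the same line of force, had medians of 0.55 (8 tested, 7 positive) and 0.66 (7 tested, all positive) above all tested genes, or 0.39 and 0.44 without control replicate 3. The type IV collagen *let-2*, made largely by body wall muscle, had 26.9, 15.6 and 3.01 TPM in the controls and 31.7, 20.7 and 42.4 TPM in JM03, the same order of libraries as *unc-54*. Within the basement membrane list *ost-1* had the smallest p (limma adjusted p = 0.459), and the laminin gene *lam-1* was the exception at 943 TPM in control replicate 3, against 36.8 to 60.7 TPM elsewhere. The intermediate filament gene *mua-6* led the epidermal list (5.08, 1.80 and 1.16 against 6.17, 6.16 and 6.80 TPM, limma adjusted p = 0.366).

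Markers of other tissues also differed between the libraries. Intestine, oocyte and neuron sums were lowest in control replicate 3, as most muscle genes were, but highest in JM03 replicate 1, not 3. Single genes did not all follow these sums. The oocyte genes *oma-1*, *oma-2*, *puf-5*, *cbd-1* and *egg-1* were highest in JM03 replicate 3, and *rme-2*, *perm-2* and *perm-4* in JM03 replicate 1. Of the other lists *act-5*, *elt-7*, *unc-119* and *ric-4* were highest in JM03 replicate 3, and the remaining intestine and neuron genes were not. Summed over 8 genes each, intestine markers ran from 51.3 to 207 TPM in control and 179 to 242 in JM03, oocyte markers from 2982 to 5414 and 5713 to 6725, and neuron markers from 201 to 366 and 389 to 411. Sperm markers went the other way, with 1388, 2210 and 2884 TPM in control replicates 1, 2 and 3, against 495 to 990 TPM in JM03, with the lowest sum in JM03 replicate 3. All 8 genes of the sperm list had negative log2 fold changes, and those of the other 3 lists positive ones (smallest p for *ges-1*, *unc-119*, *msp-10* and *perm-2*, limma adjusted p = 0.415, 0.49, 0.306 and 0.42). No list had a gene at 0 in all libraries. Relative to all tested genes the medians were 0.46, 0.37, 0.086 and -1.92 for intestine, oocyte, neuron and sperm markers, and 0.28, 0.34, 0.040 and -1.39 without control replicate 3. The part of these tissue differences in the muscle gene values was not tested.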

How the data were processed

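Per the submitters' processing notes the authors used fastp, HISAT and RSEM with build WBcel235, with no versions or settings stated. The deposited table gives TPM for each gene in each library, a unit read from column sums of 997816 to 998884. Columns were assigned by sample title. Of 46778 rows, 46603 matched the Ensembl release 115 annotation, which gave coordinates and transcript lengths, and 221 symbols were looked up by gene ID. TPM are not counts, so no count test was used. Genes reaching 1 TPM in 3 or more libraries were tested as log2(TPM + 1), which understates changes of low genes, with limma 3.58.1 in R 4.3.3 (trend, robust) and Benjamini-Hochberg adjustment over all 12912. The fit was tested on simulated data in which genes varied independently and no library was shifted. The simulation thus does not cover a library like control replicate 3. The members, lists and tests were chosen with earlier results of these data known. All members are named, the filament and attachment genes of highest level or smallest p, the extremes and the ratio partners in full, and from each other list the gene of smallest p. *pat-10*, *hlh-1*, *tni-4*, *let-2* and *lam-1* were chosen after their values were seen. Alternatives were a pseudocount of 0.1, other filters, quantile normalization, rescaled protein-coding genes, removal of a length trend (lowess, span 0.3), array quality weights, a replicate block and each library left out. Removal of the trend without control replicate 3 was added after seeing the data. Ratios used scipy 1.17.1 and figures matplotlib 3.10.9.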

Additional observations from a re-analysis of the deposited data

How the results depend on the processing

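No muscle gene passed the adjusted p under any setting run except array quality weights, which called 2 of them, 18 genes of the other lists and 2202 of all 12912 tested genes. Over all genes, 17 were called with the 6 libraries, and leaving out 1 library gave 5 to 17, namely 13, 8 and 17 without control replicates 1, 2 and 3 and 5, 6 and 10 without JM03 replicates 1, 2 and 3. Deviations of same-numbered libraries from their group means had Pearson correlations of -0.0203, 0.0795 and -0.146 over the tested genes. Those of differently numbered libraries ran from -0.278 to 0.291. With 3 libraries per group, these values cannot settle whether the replicate numbers pair the libraries. A fit blocked by replicate called 0 of all tested genes and 0 of the 33 muscle genes (smallest adjusted p 0.409), with fewer residual degrees of freedom. The median log2 fold change of the muscle genes relative to all tested genes was 0.25 to 0.64 over all settings. The direction of some single genes turned: *tni-3* at -0.15 with quantile normalization, *tnt-3*, *unc-22* and *deb-1* at -0.084, -0.098 and -0.039 with the length trend removed, and *tnt-4* at -0.031 with array quality weights and -0.11 with the length trend removed and control replicate 3 left out. With 1 library left out *tni-3* ranged from -0.18 to 0.43 and *tnt-4* from -0.042 to 0.75. The ratio of *unc-15* to the heavy chains ranged from -0.059 to 0.42 in log2 difference and that of *mlc-3* to the regulatory light chains from -0.23 to 0.064, both turning without control replicate 3. The cause was not tested. Read depth is unknown, so precision at low TPM, as for *ttn-1* and *unc-22*, cannot be given.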
